A study of Rattus norvegicus with 8 samples.

Results

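The genes followed here encode integrin subunits, the adhesion receptors through which leukocytes hold on to each other, to vessel walls and to matrix. They were chosen by name as 10 subunits used by leukocytes, namely Itga4, Itga6, Itgal, Itgad, Itgav, Itgax, Itgb1, Itgb2, Itgb5 and Itgb7. Of these 10, 9 had a row among the 23487 genes of the count table, and Itgb5 was not analysed here. RNA-seq measured them in peritoneal macrophages that had been sorted by flow cytometry from 8 Wistar rats, all female and 8 weeks old. Needle-like carbon nanotubes that cause mesothelioma (MWCNT-XNRI-7, named CNT-7) had been injected into the peritoneal cavity of 4 rats, and tangled nanotubes that do not (CNT-T) into that of the other 4. All were sacrificed 15 days after injection. No library of an untreated rat was used, so each difference below is between both kinds of nanotube, and a rise after CNT-7 cannot be told apart from a fall after CNT-T. In the study, macrophages were identified by a high signal of an antibody to CD11b/c and a dim His48 signal, and CD11c is the protein of Itgax. The part of this gate in the Itgax level was not tested.

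Each integrin is a pair of an α and a β subunit, and the pair decides the ligand. The β2 subunit is restricted to leukocytes. Among the α subunits followed here, it pairs with αL, αD or αX to bind the ICAM family or complement fragments. The β1 subunit pairs with α4 to bind VCAM-1 and fibronectin, with α6 to bind laminin and with αv to bind fibronectin, whereas α4 with β7 binds MAdCAM-1. Talin and kindlin inside the cell switch integrins to their active form, and Src family and focal adhesion kinases carry the signal onward. In the peritoneal cavity, integrins take part in holding macrophages to the mesothelial lining and in bringing monocytes into the cavity.

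Promoter sequences were read from RefSeq (rat assembly GRCr8), which held an entry for 5 of the 9 measured members (Itgax, Itga4, Itgav, Itgb7 and Itgb1). The 250 bases upstream of the gene start are shown for Itgax and Itga4, which differed between groups, and for Itgb7, the β partner of Itga4. They are written 5′ to 3′ on the strand of the gene, and capitals mark matches to TGTGGT, the core letters bound by RUNX factors, or to its reverse complement. They lie at chr1:192149799-192150048 on the plus strand (Itgax), chr3:84569765-84570014 on the plus strand (Itga4) and chr7:135239072-135239321 on the minus strand (Itgb7).
Itgax: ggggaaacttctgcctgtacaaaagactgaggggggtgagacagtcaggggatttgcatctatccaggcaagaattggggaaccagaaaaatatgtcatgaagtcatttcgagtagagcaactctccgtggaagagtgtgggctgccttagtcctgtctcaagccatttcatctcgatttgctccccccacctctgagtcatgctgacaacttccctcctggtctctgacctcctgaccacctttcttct
Itga4: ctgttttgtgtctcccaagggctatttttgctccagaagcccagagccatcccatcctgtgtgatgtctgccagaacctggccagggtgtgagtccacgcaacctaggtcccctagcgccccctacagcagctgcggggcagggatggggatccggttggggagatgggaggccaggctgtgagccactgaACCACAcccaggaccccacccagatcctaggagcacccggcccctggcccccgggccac
Itgb7: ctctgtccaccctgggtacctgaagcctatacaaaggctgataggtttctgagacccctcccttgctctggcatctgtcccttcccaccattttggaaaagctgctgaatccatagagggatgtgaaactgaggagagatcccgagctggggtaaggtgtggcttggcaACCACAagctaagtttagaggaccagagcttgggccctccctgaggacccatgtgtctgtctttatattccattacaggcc
Both chains of the α4β7 integrin held 1 match on the opposite strand, starting 59 bases upstream of the Itga4 start and 81 bases upstream of the Itgb7 start. TGTGGT on either strand occurred in 14.5% of the 33469 promoter windows of the same length. The Itgax window held no match to TGTGGT and none to GAGGAA (ETS factors, in 23.3% of all windows). It also lacked GGGCGG (Sp1, in 30.5%) and the TATA box letters TATAAA (in 12.9%). GGGCGG was found 4 times before Itgb1 and 2 times before Itgav, and GAGGAA 1 time before each. These matches describe letters and are not evidence of binding, and the motifs were chosen with the expression results known.

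In all rats together, 12124 genes passed the filter on low counts and were tested with the quasi-likelihood test of edgeR. A gene was called when its p-value, adjusted over all 12124 genes by the Benjamini-Hochberg method, was under 0.10. By this rule 27.9% of all tested genes were called, 13.9% higher and 14.0% lower in CNT-7. The libraries held between 27195157 and 33732981 counts, so that the 3 counts taken as the detection limit correspond to between 0.0887 and 0.109 CPM (counts scaled to 1000000 per library, with TMM-scaled library sizes). Such a limit covers counting error alone. All 9 members were tested. Itgax was called higher, Itga4 and Itga6 were called lower, and 6 members did not pass. The median log2 fold change of the 9 members (CNT-7 over CNT-T throughout) was 0.09, whereas that of all tested genes was 0.0083. With 3 of 9 called, the share of members was near the 27.9% background, and the same 3 were the members whose groups did not overlap in CPM, which held for 24.9% of all tested genes. Values with ± are the SD over the 4 rats of a group.

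**Figure D1:**
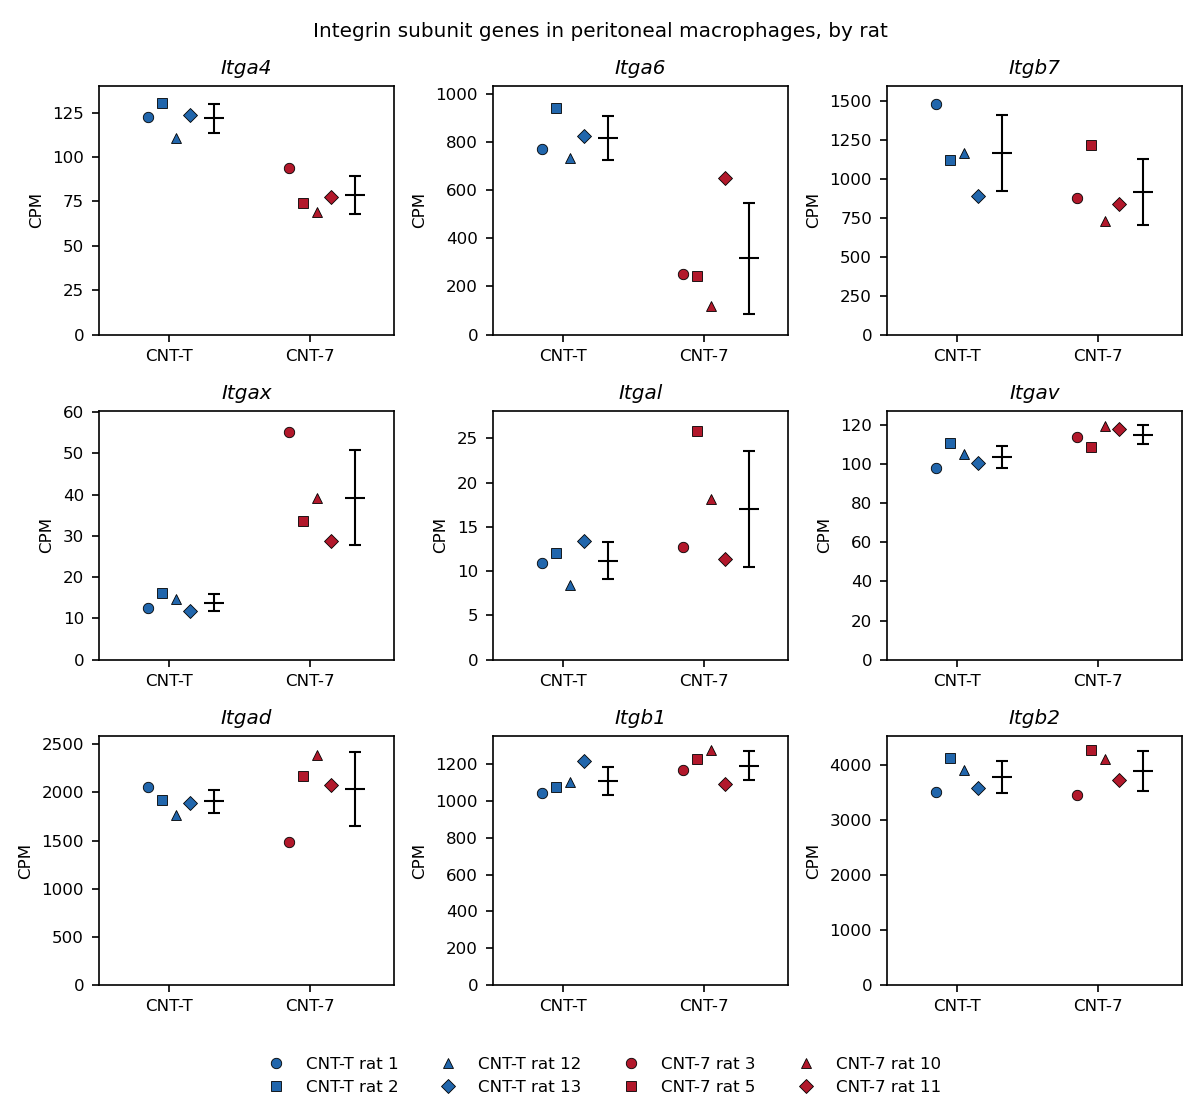
CPM of the 9 measured integrin subunit genes in each rat, 1 panel per gene, with CNT-T rats in blue and CNT-7 rats in red and the vertical axis from 0. Bars give the mean and SD of the 4 rats. Itgax lay between 28.9 and 55.2 CPM after CNT-7 and at most at 16.2 CPM after CNT-T, Itga4 and Itga6 lay lower in every CNT-7 rat than in any CNT-T rat, and the groups overlapped for the other 6 genes.

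Among the α subunits followed here that pair with β2, Itgax changed, whereas Itgad, Itgal and the shared β2 chain itself did not pass the test. Itgax (ENSRNOG00000036703) encodes αX (CD11c), a receptor for complement fragments that is found on dendritic cells and on many monocyte-derived macrophages. It had 55.2, 33.7, 39.3 and 28.9 CPM in CNT-7 rats 3, 5, 10 and 11. CNT-T rats 1, 2, 12 and 13 had 12.6, 16.2, 14.7 and 11.9 CPM. The groups were separate, rat 3 being the highest of the CNT-7 group. The mean rose 2.84-fold, from 13.8 ± 1.98 to 39.2 ± 11.4 CPM, with a log2 fold change of 1.50 (SE 0.20, 95% interval 1.07 to 1.94, adjusted p = 0.0010). In the alternatives run, each rat left out in turn included, its log2 fold change stayed between 1.29 and 1.62, and the largest adjusted p was 0.0049. Of the 6 dendritic cell markers listed (Flt3, Zbtb46, Xcr1, Clec9a, Ccr7, Batf3), 4 were tested and 3 (Clec9a, Ccr7 and Batf3) were higher in CNT-7. Clec9a and Ccr7 averaged only 1.32 and 1.50 CPM after CNT-7. Zbtb46 did not pass and lay slightly the other way (log2 fold change -0.22, adjusted p = 0.65). The sum of the 6 genes was 13.4 to 19.1 CPM in the CNT-7 group and 7.34 to 15.7 CPM in the CNT-T group, so the groups overlapped. Flt3 and Xcr1 were each under 0.5 CPM in every rat. The eosinophil markers Ccr3 and Il5ra stood apart in CNT-7 rat 3, the rat with the highest Itgax, at 8.74 and 0.56 CPM against at most 0.64 and 0.033 CPM in any other rat. The part of these markers in the Itgax difference was not tested, and without CNT-7 rat 3 the log2 fold change of Itgax was 1.29 (adjusted p = 0.0012). In a bulk sample, more cells with Itgax and more Itgax RNA per cell cannot be told apart, and the same holds for every gene below.

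Itgad (ENSRNOG00000019728) encodes αD, a β2 partner known from tissue macrophages, and is next to Itgax in the genome with no protein-coding gene between them in the GRCr8 annotation. It had 1488, 2171, 2387 and 2078 CPM in CNT-7 rats 3, 5, 10 and 11, and 2058, 1918, 1768 and 1888 CPM in CNT-T rats 1, 2, 12 and 13. The CNT-T rats lay inside the range of the CNT-7 rats, of which rat 3 was the lowest for Itgad and the highest for Itgax. The log2 fold change was 0.09 (95% interval -0.21 to 0.39, adjusted p = 0.70). Itgax and Itgad are similar in sequence, so the division of reads between them by the quantification is uncertain, and it was not tested. RefSeq also lists Itgax among the older names of Itgad. Both rows were identified by the pairing of Ensembl identifier and symbol in the table.

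Itgal (ENSRNOG00000017980) encodes αL (CD11a), the chain of LFA-1 that binds ICAM-1. Its level was 12.8, 25.9, 18.1 and 11.4 CPM in CNT-7 rats 3, 5, 10 and 11, against 10.9, 12.1, 8.37 and 13.4 CPM in CNT-T rats 1, 2, 12 and 13. Rats 5 and 10 lay above the CNT-T group, and rats 3 and 11 lay within it. The log2 fold change of 0.61 (95% interval 0.036 to 1.18) gave an adjusted p of 0.13. The value rested largely on CNT-7 rat 5, without which the log2 fold change of Itgal was 0.33 (adjusted p = 0.33), and without CNT-T rat 12 it was 0.49 (adjusted p = 0.28). It passed with DESeq2 (adjusted p = 0.070) and without CNT-7 rat 11 (0.76, adjusted p = 0.051). LFA-1 is also a lymphocyte integrin, and of the 6 T and NK cell markers in the table, 3 were tested. Il7r and Cd2 were higher in CNT-7, and Ncr1 did not pass (log2 fold change 0.39, adjusted p = 0.45). Il7r, the receptor chain for interleukin-7, had 15.7, 36.1, 52.8 and 11.6 CPM in CNT-7 rats 3, 5, 10 and 11 and between 0.99 and 11.7 CPM in CNT-T rats. The summed T and NK cell markers ranged from 14.9 to 59.3 CPM after CNT-7, mostly from Il7r, and from 2.61 to 13.4 CPM after CNT-T. The chains of the T cell receptor complex, Cd3d, Cd3e and Cd3g, averaged 0.31, 0.81 and 0.47 CPM after CNT-7. The part of these markers in the Itgal values was not tested.

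Itgb2 (ENSRNOG00000001224) encodes β2 (CD18), without which none of these α chains reaches the cell surface. It had 3444, 4266, 4110 and 3731 CPM in CNT-7 rats 3, 5, 10 and 11, and 3515, 4119, 3916 and 3574 CPM in CNT-T rats 1, 2, 12 and 13. The groups overlapped over nearly their whole range. The log2 fold change was 0.04 (95% interval -0.18 to 0.26, adjusted p = 0.81), an interval that leaves out the change seen for Itgax.

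Of the subunits that pair with β1 or β7, the α chains Itga4 and Itga6 fell, whereas Itgav, Itgb1 and Itgb7 did not pass the test. Itga4 (ENSRNOG00000004861) encodes α4 (CD49d), which monocytes and lymphocytes use to bind VCAM-1 on activated vessels. CNT-7 rats 3, 5, 10 and 11 had 93.8, 74.2, 69.0 and 77.7 CPM of Itga4. The values in CNT-T rats 1, 2, 12 and 13 were 123, 130, 111 and 124 CPM. No CNT-7 rat reached the lowest CNT-T rat. Its mean of 122 ± 8.20 CPM in CNT-T dropped to 78.7 ± 10.7 CPM in CNT-7, 1.55-fold higher in CNT-T (log2 fold change -0.63, SE 0.10, 95% interval -0.86 to -0.41, adjusted p = 0.0026). Over the alternatives the log2 fold change was -0.73 to -0.57, and the largest adjusted p was 0.011.

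Itga6 (ENSRNOG00000001518) encodes α6 (CD49f), a laminin receptor chain. It had 253, 243, 117 and 652 CPM in CNT-7 rats 3, 5, 10 and 11, whereas CNT-T rats 1, 2, 12 and 13 had 772, 942, 732 and 827 CPM. All CNT-7 rats were lower than all CNT-T rats, but rat 11 lay close to the CNT-T group and far from the other CNT-7 rats. The means were 316 ± 232 and 818 ± 91.0 CPM, 2.59-fold higher in CNT-T, with a log2 fold change of -1.37 (SE 0.42, 95% interval -2.32 to -0.43, adjusted p = 0.046). This call was lost without CNT-7 rat 3 (adjusted p = 0.11), CNT-7 rat 5 (0.12) or CNT-T rat 2 (0.104), and without CNT-7 rat 11 the log2 fold change was -2.0 (adjusted p = 0.00088). Megakaryocytes and platelets also carry α6, and of the platelet marker list Pf4 fell in CNT-7, with 253, 312, 183 and 412 CPM in CNT-7 rats 3, 5, 10 and 11 and 466 to 720 CPM in CNT-T rats. Of the other 4 platelet genes, Gp1bb and Gp9 were at 0 in all 8 rats, Ppbp was under 0.04 CPM in each, and Itga2b averaged 0.84 CPM in the CNT-7 and 0.87 CPM in the CNT-T group (log2 fold change -0.06, adjusted p = 0.93). The summed list ranged from 184 to 413 CPM after CNT-7 and from 468 to 721 CPM after CNT-T, nearly all of it from Pf4. Their part in the Itga6 difference was not tested.

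Itgb7 (ENSRNOG00000012208) encodes β7, the partner of α4 in homing to the gut. CNT-7 rats 3, 5, 10 and 11 had 876, 1218, 728 and 838 CPM of Itgb7, and CNT-T rats 1, 2, 12 and 13 had 1482, 1122, 1169 and 889 CPM. The groups overlapped because rat 5 was high among the CNT-7 rats and rat 13 low among the CNT-T rats. The log2 fold change was -0.35 (95% interval -0.76 to 0.06, adjusted p = 0.22), and single rats moved it both ways. Without CNT-T rat 1 the log2 fold change of Itgb7 was -0.21 (adjusted p = 0.46), and without CNT-7 rat 5 it was -0.52 and passed (adjusted p = 0.070).

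Itgb1 (ENSRNOG00000010966), the common chain of matrix-binding integrins, had 1169, 1232, 1277 and 1092 CPM in CNT-7 rats 3, 5, 10 and 11. In CNT-T rats 1, 2, 12 and 13 it had 1043, 1077, 1101 and 1216 CPM. Each group reached into the other, and the log2 fold change was 0.10 (95% interval -0.08 to 0.29, adjusted p = 0.42). Itgav (ENSRNOG00000004912), the αv chain of vitronectin receptors, had 114, 109, 120 and 118 CPM in these CNT-7 rats and 97.9, 111, 105 and 101 CPM in these CNT-T rats. Its log2 fold change was 0.15 (95% interval 0.0037 to 0.30, adjusted p = 0.14), with CNT-T rat 2 above CNT-7 rat 5. A change of Itgb1 or Itgav of 2-fold lies outside these intervals.

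A list of 15 other integrin subunit genes was read in the same way, and subunits outside it and the members were not analysed here. Of these 15, 6 were expressed highly enough to be tested, 3 were higher in CNT-7 (Itgb3, Itga5 and Itgb4) and 1 was lower (Itga9). The shares over all tested genes were 13.9% higher and 14.0% lower. Itgb3 (ENSRNOG00000048449), the β3 chain that pairs with αv, had 35.3, 49.5, 93.1 and 37.7 CPM in CNT-7 rats 3, 5, 10 and 11 and 6.81, 5.76, 7.75 and 7.73 CPM in CNT-T rats 1, 2, 12 and 13. Its lowest CNT-7 rat was thus well above its highest CNT-T rat. The mean rose 7.69-fold (log2 fold change 2.94, SE 0.31, adjusted p = 0.00039), the largest log2 change among the 15 subunits tested, members included.

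Itga5 (ENSRNOG00000057451), the α5 chain of the main fibronectin receptor with β1, rose 1.63-fold, from 140 ± 41.8 to 229 ± 22.5 CPM (log2 fold change 0.71, adjusted p = 0.026). The lowest CNT-7 rat had 209 CPM and the highest CNT-T rat 189 CPM. Itga9 (ENSRNOG00000043167), the α9 chain that pairs with β1 and binds tenascin, fell from 17.0 ± 4.34 to 7.52 ± 1.49 CPM (log2 fold change -1.18, adjusted p = 0.0040). Itgb4, the partner of α6 in epithelia, averaged only 1.09 CPM in the CNT-7 group against 0.58 CPM in the CNT-T group (log2 fold change 0.92, adjusted p = 0.052). That call was lost without CNT-7 rat 3, 10 or 11 or CNT-T rat 2 or 12, where the largest adjusted p was 0.12. Itgae averaged 2.61 and 2.68 CPM in CNT-7 and CNT-T rats, and Itga2b, the platelet αIIb chain, 0.84 and 0.87 CPM. The 9 subunits left out by the filter (Itga1, Itga2, Itga3, Itga7, Itga8, Itga10, Itga11, Itgb6 and Itgb8) had group means of at most 0.26 CPM.

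**Figure D2:**
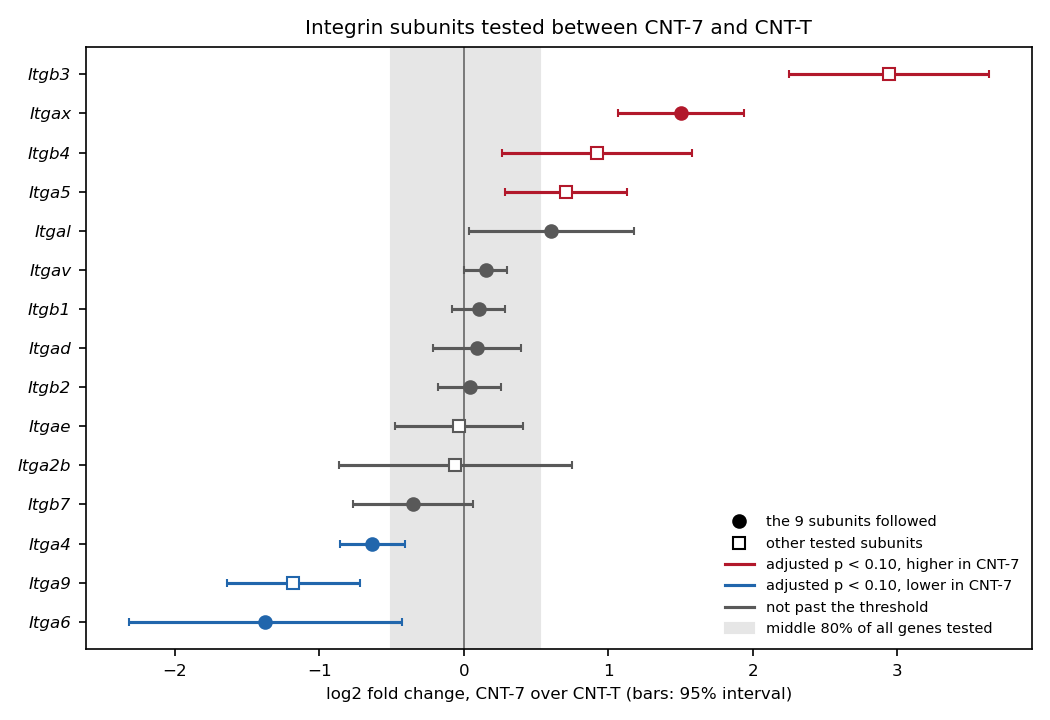
Log2 fold change (CNT-7 over CNT-T) and its 95% interval for the 15 integrin subunit genes tested, filled circles for the 9 members and open squares for the other 6. The grey band runs from the 10th to the 90th percentile of all genes tested (-0.51 to 0.53). Itgb3 (2.94) and Itgax (1.50) lie farthest to the right, Itga6 (-1.37) and Itga9 (-1.18) farthest to the left, and Itgb1, Itgb2, Itgad and Itgav lie within the band.

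Since an α chain can reach the surface only with a β partner, the count of each α subunit gene was divided by that of its partner in the same rat. Such a log2 ratio (with 0.5 added to each count) does not depend on library scaling, but gene lengths differ and are not in the table, so ratios are compared between groups and not between pairs. Of 8 pairs set out, 7 could be computed. With 4 rats against 4, the 70 divisions of the rats give a smallest two-sided p of 0.0286 in the exact permutation test. Itgax relative to Itgb2 was -5.96, -6.98, -6.71 and -7.01 in CNT-7 rats 3, 5, 10 and 11 and from -8.23 to -7.99 in CNT-T animals. The groups were separate and the difference of means was 1.43, or 2.70-fold (exact permutation p = 0.0286, 0.067 adjusted over the 7 ratios).

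Itga4 relative to Itgb1 lay between -4.21 and -3.64 in CNT-7 rats and between -3.31 and -3.05 in CNT-T rats. The difference was -0.74, 1.67-fold higher in CNT-T (exact permutation p = 0.0286, adjusted 0.067). Relative to Itgb7, which was itself lower on average, Itga4 differed by -0.29 and the groups overlapped (exact permutation p = 0.34, adjusted 0.48). Itga6 relative to Itgb1 was -2.21, -2.34, -3.45 and -0.74 in CNT-7 rats 3, 5, 10 and 11 and between -0.59 and -0.19 in CNT-T rats (difference -1.74, exact permutation p = 0.0286, adjusted 0.067). Rat 11 stood at the edge of the CNT-T group again, and without any 1 of the CNT-T rats the exact permutation p of Itga6 to Itgb1 was 0.057 and no longer the smallest possible. The ratios of Itgal to Itgb2 (difference 0.51, exact permutation p = 0.14), Itgad to Itgb2 (0.03, p = 0.83) and Itgav to Itgb1 (0.05, p = 0.63) overlapped between groups.

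Another 3 ratios were chosen after the values were seen. Itgav exceeded Itgb3 by 3.89 ± 0.26 on the log2 scale of counts after CNT-T and by 1.21 ± 0.62 after CNT-7, a difference of -2.68, in which Itgb3 alone passed the edgeR test. Itga5 relative to Itgb1 differed by 0.65 and Itgax relative to Itgad by 1.40. The groups were separate in all 3, which is given as a description with no test.

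**Figure D3:**
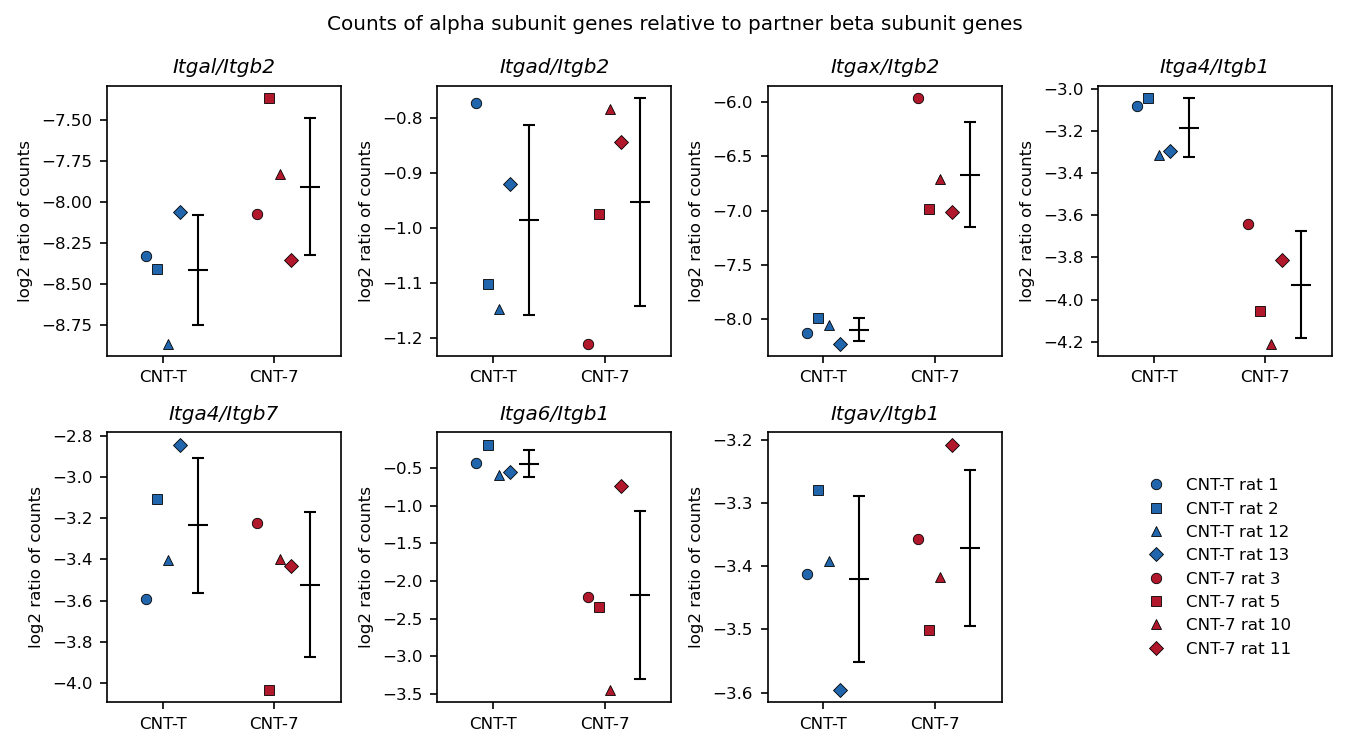
Log2 ratio of the count of an α subunit gene to that of its β partner in each rat for 7 pairs, CNT-T in blue and CNT-7 in red, with the mean and SD of the 4 rats. Each panel has its own vertical axis, which does not start at 0. Itgax/Itgb2 was higher in every CNT-7 rat (difference of means 1.43), Itga4/Itgb1 and Itga6/Itgb1 were lower (-0.74 and -1.74), and the other 4 ratios overlapped.

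The ligands were followed in a list of 32 genes, of which 17 were tested, 6 were higher in CNT-7 and 2 lower. Over all tested genes 13.9% were higher and 14.0% lower. The median log2 fold change of the 17 was 0.06. Mfge8 and Edil3, secreted proteins that bridge phosphatidylserine on dying cells to αv integrins, rose 8.90-fold and 7.45-fold. Mfge8 went from 3.48 ± 1.58 to 31.2 ± 13.5 CPM (log2 fold change 3.15, adjusted p = 0.0014). Edil3 went from 1.85 ± 1.46 to 13.8 ± 3.38 CPM (log2 fold change 2.90, adjusted p = 0.0020). In both genes the groups were separate.

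C3, the complement component whose iC3b fragment is bound by αX with β2, rose from 150 ± 52.8 to 1253 ± 394 CPM (log2 fold change 3.06, adjusted p = 0.00044), with the lowest CNT-7 rat at 666 CPM and the highest CNT-T rat at 204 CPM. Ccn1, a matrix protein bound by αv integrins and α6 with β1, rose from 1.80 ± 0.57 to 4.36 ± 0.85 CPM (log2 fold change 1.27, adjusted p = 0.0074). Icam1, a ligand of LFA-1, rose from 56.5 to 89.4 CPM (log2 fold change 0.66, adjusted p = 0.0074), and Icam5 was also called at about 1 CPM or less. Icam2, more abundant than both, had 526 CPM in the CNT-7 group and 505 CPM in the CNT-T group. It did not pass (log2 fold change 0.06, adjusted p = 0.81). Icam1, Icam5 and Icam2 were named after their values were seen.

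Vcam1, the ligand of α4 with β1, fell from 1.59 ± 0.69 to 0.67 ± 0.28 CPM (log2 fold change -1.25, adjusted p = 0.054). Lamb2, a laminin chain, fell from 10.4 ± 0.87 to 4.67 ± 0.94 CPM (log2 fold change -1.15, adjusted p = 0.0012). The other 2 laminin chains tested did not pass, Lama1 with 2.01 and 1.96 CPM (log2 fold change 0.03) and Lamc1 with 4.58 and 4.66 CPM (-0.03) after CNT-7 and CNT-T. Fn1, fibronectin, which α4, α5 and αv can bind, was the most abundant ligand gene at 46672 ± 4259 CPM in the CNT-7 group and 42819 ± 4040 CPM in the CNT-T group, and it did not pass (log2 fold change 0.12, 95% interval -0.13 to 0.38, adjusted p = 0.50). Madcam1, the ligand of α4 with β7, and Vtn, vitronectin, had no count in any rat, which at this depth allows levels of up to 0.0887 to 0.109 CPM per library.

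Of the 29 intracellular activators and adaptors, 26 were tested, 5 were higher and 5 lower in CNT-7, with a median log2 fold change of -0.02. Among all tested genes the shares were 13.9% and 14.0%. Parva, a parvin that links integrins to actin, fell from 2.10 ± 0.77 to 0.45 ± 0.25 CPM (log2 fold change -2.22, adjusted p = 0.0067). Rasgrp2, the exchange factor that activates Rap1 ahead of talin, fell from 258 ± 22.3 to 171 ± 18.3 CPM (-0.59, adjusted p = 0.0029). The other falls, of Pxn (-0.25, adjusted p = 0.088), Actn4 (-0.23, adjusted p = 0.087) and Apbb1ip (-0.23, adjusted p = 0.098), were small. Higher in CNT-7 were Vasp (0.53, adjusted p = 0.022) and Zyx (0.36, adjusted p = 0.090), which act on actin at adhesion sites. Also higher were the cytohesin Cyth1 (0.21, adjusted p = 0.059) and its binding protein Cytip (0.40, adjusted p = 0.0053), which act on β2 integrins. The fifth was Dok1 (0.32, adjusted p = 0.046), which competes with talin for the β tail. Apbb1ip, Cyth1, Parvb and Parvg were named after their values were seen. Talin itself (Tln1, log2 fold change -0.10, 95% interval -0.31 to 0.10) and the leukocyte kindlin (Fermt3, -0.05, 95% interval -0.22 to 0.12) did not pass.

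Among the 27 signalling kinases and exchange factors, 26 were tested, 5 were higher and 5 lower, and the median log2 fold change was -0.03. For all tested genes the shares were 13.9% higher and 14.0% lower. The 5 that rose included kinases known to signal below β2 integrins in myeloid cells, namely Fgr (log2 fold change 0.61, from 239 ± 31.2 to 366 ± 44.7 CPM, adjusted p = 0.0064), Lyn (0.31, adjusted p = 0.017) and Syk (0.23, adjusted p = 0.049). Src (0.93, adjusted p = 0.083) was called at only 3.41 ± 1.50 CPM after CNT-7. The 5 genes that fell were the focal adhesion kinase Ptk2 (-0.44, from 92.9 to 68.6 CPM, adjusted p = 0.0019), its substrate Bcar1 (-0.65, adjusted p = 0.062) and the Rac exchange factors Dock1 (-0.34, adjusted p = 0.015), Dock2 (-0.29, adjusted p = 0.022) and Vav3 (-0.28, adjusted p = 0.069). Git1 (0.23, adjusted p = 0.072) was the fifth to rise. Git1 and Vav3 were named after their values were seen.

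Of 20 tetraspanins, membrane partners and trafficking genes, 19 were tested, 7 were higher and 0 lower in CNT-7 by edgeR. Across all tested genes 13.9% were higher and 14.0% lower. The endocytic recycling gene Ehd1 (log2 fold change -0.20, adjusted p = 0.14) was the 1 gene lower at an unadjusted p under 0.05, and DESeq2 called 1 gene of the list lower. The median log2 fold change was 0.12. Cd9, a tetraspanin that associates with β1 integrins, had 127, 137, 188 and 60.0 CPM in CNT-7 rats 3, 5, 10 and 11 and 15.7, 6.12, 8.01 and 11.5 CPM in CNT-T rats 1, 2, 12 and 13. This was a separate pair of groups, with rat 11 nearest to CNT-T, and the log2 fold change was 3.63 (SE 0.39, adjusted p = 0.00042). The leukocyte tetraspanin Cd53 rose from 488 ± 60.5 to 857 ± 74.4 CPM (0.81, adjusted p = 0.00098), Cd63 of late endosomes by 0.58 (adjusted p = 0.043) and Rab4a, which returns integrins to the surface, by 0.68 (adjusted p = 0.024). The other 3 were Cd151 (0.41, adjusted p = 0.0030), a tetraspanin that binds α6 integrins, Cd47 (0.23, adjusted p = 0.030) and Gga3 (0.27, adjusted p = 0.052), named after their values were seen. Over all 5 lists, 94 of 123 genes were tested, 26 were higher and 13 lower, with a median log2 fold change of 0.02. Beside this stand the 13.9% higher and 14.0% lower of all tested genes, with a median of 0.0083. Without CNT-T rat 12 the number higher was 17, and without CNT-7 rat 3 the number lower was 8.

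**Figure D4:**
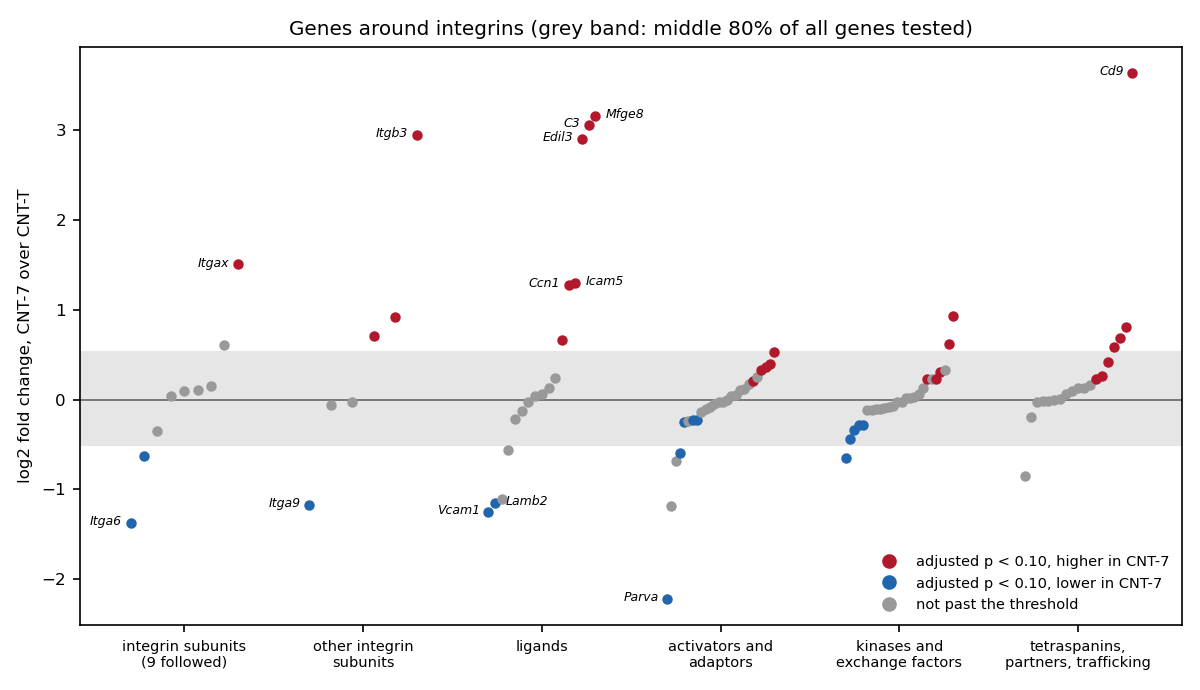
Vertical axis, log2 fold change (CNT-7 against CNT-T), for the 9 members and the tested genes of 5 lists, ordered by value within each list. Red and blue points passed an adjusted p of 0.10, and the grey band runs from the 10th to the 90th percentile of all genes tested. Cd9 (3.63), Mfge8 (3.15), C3 (3.06) and Itgb3 (2.94) lie highest and Parva (-2.22) lowest, and most activators and kinases lie within the band.

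The label of the cells was checked on marker genes. All 8 macrophage markers (Cd68, Csf1r, Adgre1, Mertk, Cd14, Lyz2, Fcgr1a, Gata6) were tested, with 2 higher (Cd14, Gata6) and 4 lower (Cd68, Csf1r, Adgre1, Fcgr1a) in CNT-7, and their sum, mostly Lyz2, was 15239 to 22413 CPM in the CNT-7 group and 23721 to 33962 CPM in the CNT-T group. Neutrophil markers summed to 26.2 to 68.4 CPM over all rats, mostly from Csf3r, and Mpo was at 0. Eosinophil markers summed to 146 to 305 CPM, nearly all from Siglec5, with Epx at 0 and with Ccr3 and Il5ra high in CNT-7 rat 3 alone. Mast cell, B cell and mesothelial or fibroblast markers summed to at most 2.51, 11.4 and 1.54 CPM, with Upk3b and Wt1 at 0. For genes at a few CPM, such as Src, Parva, Vcam1 and Itgb4, RNA of such other cells and RNA of the macrophages cannot be told apart.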

How the data were processed

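Sorted peritoneal macrophages of 4 CNT-7 and 4 CNT-T rats were sequenced as stranded mRNA libraries. The authors ran Salmon (version not given in the sources used here) on Ensembl rat cDNA of Rnor_6.0, imported the estimates with tximeta, and deposited unnormalized estimated counts for 23487 genes. Rounding to whole numbers changed 0 values. No sequence of that build was used, and promoters came from RefSeq's GRCr8.

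Groups and rat numbers came from the labels. No library was a repeat of another. The members and all lists were chosen with earlier results of these data known. The quasi-likelihood test of edgeR 4.0.16 (R 4.3.3) with TMM, filterByExpr (minimum count 10, minimum total 15) and no covariate was fitted to 12124 genes, adjusted by Benjamini-Hochberg and called under 0.10. The SE is the log2 fold change over the square root of F. The script was tested on simulated data. Alternatives were DESeq2 1.42.0, upper-quartile scaling, other filters, thresholds, a block and each rat left out.

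All members are named, and of each list the 4 largest rises and 4 largest falls among genes called with a mean of at least 1 CPM. A ligand among the 10 most abundant genes is also named. Some genes outside this rule are marked as named after their values were seen. Others outside it carry no mark, among them Itgb4, Itgae, Lama1, Lamc1, Madcam1, Vtn, Tln1, Fermt3 and Ehd1. Crkl, Lama3, Cd36, Trac and Klrb1a were not analysed here. Dock2 and Cd79a were matched through RefSeq synonyms.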

Additional observations from a re-analysis of the deposited data

How the results depend on the processing

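No paired analysis was possible because the labels give the groups no shared rat numbers (3, 5, 10 and 11 against 1, 2, 12 and 13). A block for the range of the rat numbers (low against high) changed no call of a member. A requirement of at least a 2-fold change left 1006 genes called over the whole table (552 higher, 454 lower), 1 member lower, and 11 pathway genes (7 higher, 4 lower). At an adjusted p under 0.05, 7 pathway genes were lower. DESeq2 called 2 members higher, the second being Itgal.

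With each rat left out in turn, 2578 to 3515 genes, 2 to 4 members (1 to 2 higher, 1 to 2 lower), 26 to 35 pathway genes (17 to 25 higher, 8 to 11 lower) and 2 to 3 partner ratios passed. Members higher were 2 without CNT-7 rat 11, and members lower were 1 without CNT-7 rat 3 or CNT-T rat 2. The log2 fold change of Itga6 ran from -2.0 to -1.10. Signs turned only in values near 0: that of Itgb2 ran from -0.0086 (without CNT-7 rat 5) to 0.094. The ratio difference of Itgad to Itgb2 reached 0.12 but was -0.024, -0.0040, -0.0067 and -0.021 without CNT-7 rats 10 and 11 and CNT-T rats 2 and 12. That of Itgav to Itgb1 reached 0.096 but was -0.0053 and -0.0097 without CNT-7 rat 11 and CNT-T rat 13. The cause was not tested. The alternatives for subunits that are no members were added after seeing the data. Depth limits statements on genes near 1 CPM.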
